A study of Mus musculus with 20 samples.

Results

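The genes described here are 10 C-type lectin receptors of mouse macrophages: Clec4e, Clec4d, Clec4n, Clec7a, Clec5a, Clec4a1, Clec4a2, Clec4a3, Clec12a and Clec10a. They were taken by gene symbol from count tables of 24421 genes each, and all 10 were present and passed the filter on low counts. The cells were bone marrow-derived macrophages of 5 mice, grown in medium conditioned by L929 fibroblasts as the source of the growth factor CSF-1, so they model macrophages made in culture and not a tissue population. Cells of each mouse were exposed for 48 h to 4 preparations, named as in the labels: LP, read as the lipoparticle alone and used as the control, the single formulations LP PIC and LP 3M, and the dual formulation LP 3M PIC. The lipoparticle was thus shared by all 4 conditions, and no condition without it was analysed here. The labels do not expand the codes PIC and 3M and give no amounts, and the sources used here give no strain, sex or age of the mice. Where the dual formulation is set against a single one, the amounts of PIC and 3M are taken as matched, which could not be checked.

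C-type lectin receptors are membrane proteins of myeloid cells that bind sugars, glycolipids and some self ligands through a carbohydrate recognition domain. The activating ones signal through an immunoreceptor tyrosine-based activation motif (ITAM), carried by a partner such as FcR gamma or DAP12 or in a shortened form by the receptor itself. Syk kinase and the CARD9, BCL10 and MALT1 complex then lead to NF-kB and cytokine genes. Others carry an inhibitory motif (ITIM) that recruits phosphatases, and a further group takes up glycoproteins without either motif. The comparisons ask which of these receptors a macrophage transcribed more or less of after each single formulation and after the dual one.

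Of the members, 9 lie on chromosome 6 of GRCm38 and the other, Clec10a, on chromosome 11. From Clec4a1 to Clec4e, chr6:122921848-123289870 holds 9 C-type lectin genes over 368 kb, of which 6 are members: Clec4a1, Clec4a3, Clec4a2, Clec4n, Clec4d and Clec4e. Clec12a and Clec7a bound the other stretch of 6 such genes at chr6:129342691-129472779. Clec5a stands alone at chr6:40574894-40585821, and Clec10a lies at chr11:70156197-70170834. The windows of 250 bases before the RefSeq start sites (GRCm38.p6) are shown for the 2 genes that changed most upward, Clec4e and Clec4a1, and for Clec7a, an activating receptor that was lower with the dual formulation. Capitals mark matches to 1 of 6 motifs on either strand: C/EBP (TTGCNNAA), PU.1 (GAGGAA), AP-1 (TGANTCA), the interferon-response type GAAANNGAA, the TATA box (TATAAA) and the NF-kB consensus. The Clec4e window is chr6:123289872-123290121 on the minus strand, the Clec4a1 window chr6:122921598-122921847 on the plus strand and the Clec7a window chr6:129472780-129473029 on the minus strand.
Clec4e: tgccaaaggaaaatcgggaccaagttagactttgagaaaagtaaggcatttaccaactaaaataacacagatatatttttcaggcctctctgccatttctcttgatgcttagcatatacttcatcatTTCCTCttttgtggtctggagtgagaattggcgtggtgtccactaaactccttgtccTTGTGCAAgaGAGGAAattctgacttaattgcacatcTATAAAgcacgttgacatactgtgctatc
Clec4a1: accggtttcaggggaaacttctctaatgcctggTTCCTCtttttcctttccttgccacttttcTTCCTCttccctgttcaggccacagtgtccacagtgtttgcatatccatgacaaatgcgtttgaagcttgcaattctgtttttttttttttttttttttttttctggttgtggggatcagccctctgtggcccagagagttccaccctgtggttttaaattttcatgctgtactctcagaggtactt
Clec7a: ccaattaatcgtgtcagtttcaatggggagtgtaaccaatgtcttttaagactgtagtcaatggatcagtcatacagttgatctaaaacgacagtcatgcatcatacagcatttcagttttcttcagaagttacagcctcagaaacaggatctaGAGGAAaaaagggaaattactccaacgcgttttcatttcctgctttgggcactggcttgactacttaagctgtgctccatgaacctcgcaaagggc
In the Clec4e window the C/EBP match begins 66 bases before the start site and is read on the opposite strand. PU.1 matches begin at 123 and 56 bases and the TATA box at 29 bases before it. The Clec4a1 window has 2 PU.1 matches, at 217 and 187 bases, and the Clec7a window has 1, at 96 bases. Windows were found for 8 of the 10 members. PU.1 letters occurred for 7 of these members, beside 23.3% of all 32851 RefSeq windows of this length. A member was counted if any of its windows matched, and Clec4a3 and Clec7a had more than a single window. The percentages count single windows, so members and percentages are not strictly alike. C/EBP letters were present for 2 of the 8 (9.56% of all windows), TATA letters for 3 (12.4%) and AP-1 letters for 1 (6.75%). None of the 8 held the interferon-response letters (7.13% of all windows) or the NF-kB consensus (7.25%). These are matches of letters in a short window and do not show binding.

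Depth was 9.74 to 23.87 M gene counts per library (M, mega), with a median of 22.75 M. Levels are in CPM, read counts relative to each library total, at which 3 counts correspond to 0.126 to 0.308 CPM. The 12 macrophage markers summed to 15284 to 23274 CPM in LP and 14990 to 20464 CPM in LP 3M PIC, with none at 0. Of 13 neutrophil markers in the tables, 2 in LP 3M PIC and 3 in LP were at 0 in every library of that condition, among them Retnlg and Cxcr2. Their sum was nevertheless higher after the formulations and went from 41.6 to 77.7 CPM in LP libraries up to 114 to 202 CPM with PIC, 173 to 1461 CPM with 3M and 369.6 to 5160 CPM with both. In LP 3M PIC most of it was Lcn2 and Mmp9, with means of 1338 and 319 CPM. In LP and LP PIC the highest marker was Csf3r, with means of 46.0 and 78.8 CPM. Csf3r stood at 85.4 CPM in LP 3M and 150 CPM in LP 3M PIC. The granule genes Mpo, Elane and Ltf stayed at or under 0.325 CPM in every library. The filter on low counts was passed by 6 of the 13, and all 6 were called higher with LP 3M PIC than with LP. Over all tested genes, 31.7% were higher there. A gene that is high in only some conditions can pass that filter, and Camp rested on 4 counts over the LP libraries. Markers that failed it were not tested. Of these, S100a9 stood at 0.0882 CPM in LP and 0.106 CPM in LP 3M PIC. Ngp stood at 0.119 and 0.0954 CPM, and Ltf at 0.143 and 0.0190 CPM. S100a8 went from a mean of 1.69 to 133 CPM, with 3.35 to 536 CPM among the LP 3M PIC libraries, Mmp8 from 7.37 to 45.5 CPM and Camp from 0.0357 to 1.42 CPM. The summed markers of dendritic cells reached 47.5 CPM in LP 3M PIC, mostly Ccr7, and those of fibroblasts lay between 15.8 and 136.5 CPM. Markers of T, B and NK cells stayed at or under 2.29 CPM and those of mast cells and basophils at or under 0.230 CPM. Clec4e, Clec4d, Clec5a, Clec7a and Clec12a are also known in neutrophils, and the part of such cells in the receptor changes was not tested. In RNA from whole cultures, a change in the number of cells that express a gene and a change of RNA per cell cannot be told apart.

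**Figure D1:**
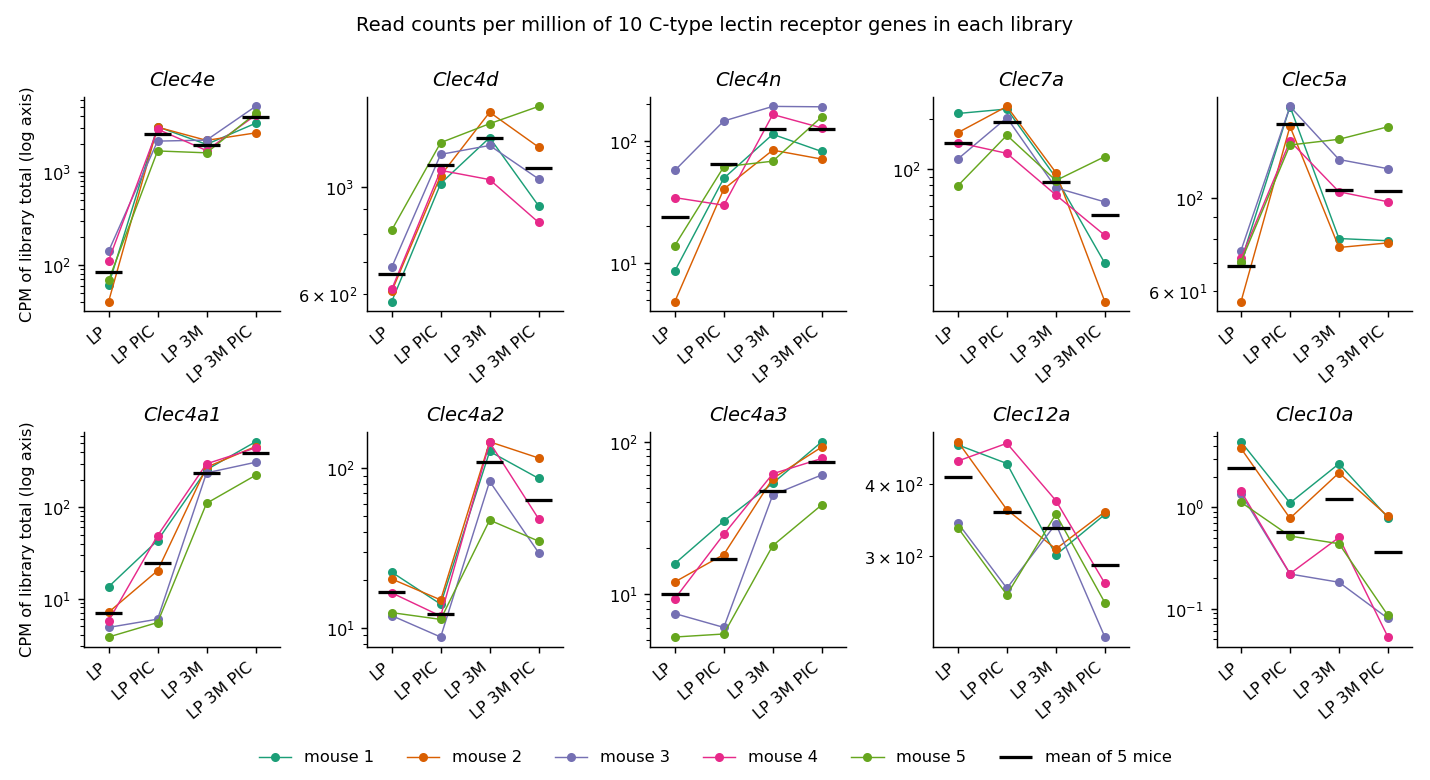
CPM of the library total (log axis) for each of the 10 receptor genes under the 4 conditions; each colour is a mouse, lines join libraries of the same mouse and black bars are means of 5 mice. Clec4e, Clec4d, Clec5a and Clec4a1 lay above their LP values in every mouse under each formulation, while Clec10a lay below its LP values.

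Against LP, every receptor that rose with LP PIC also rose with LP 3M and LP 3M PIC. Clec10a fell with LP PIC and LP 3M PIC and Clec7a with LP 3M PIC, while Clec12a passed the test with no formulation. LP PIC raised 5 of 10 members and lowered 1, where 22.7% of all 12132 tested genes rose and 22.7% fell. Without mouse 4, the count of members called fell from 6 to 3. LP 3M raised 7 of 10 and lowered none, where 20.0% of tested genes rose and 19.5% fell. LP 3M PIC raised 7 of 10 and lowered 2, where 31.7% rose and 30.6% fell. The median log2 change over the members was 0.81, 1.71 and 1.44 in these contrasts, beside medians of 0.00, -0.01 and 0.02 over all tested genes. The 7 that rose with LP 3M were Clec4e, Clec4d, Clec4n, Clec5a, Clec4a1, Clec4a2 and Clec4a3, and these 7 also rose with LP 3M PIC. The members were selected with such results known, so these counts describe the chosen genes.

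**Figure D2:**
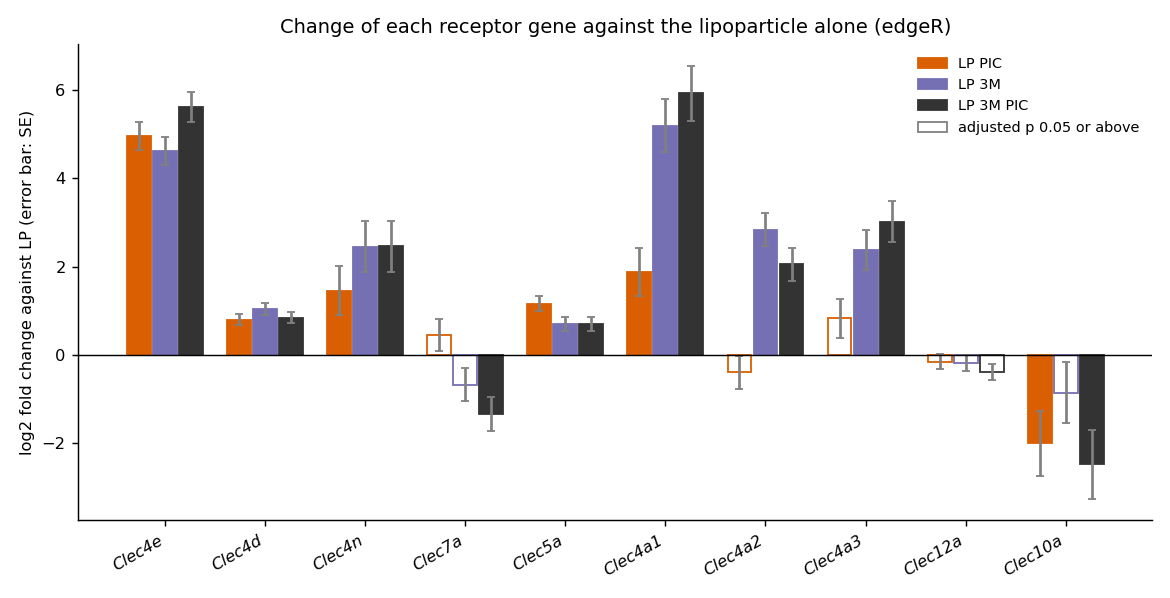
Log2 fold change of each receptor gene against LP for each single formulation and the dual one (edgeR, bars with SE; open bars have an adjusted p of 0.05 or above). The tallest bars are Clec4a1 (5.93) and Clec4e (5.62) with LP 3M PIC, and Clec10a reaches -2.49.

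Clec4e encodes Mincle, an FcR gamma-coupled receptor for mycobacterial and other glycolipids and for a protein released by dying cells. In LP it stood at 60.9, 40.3, 141, 111 and 68.2 CPM in mice 1 to 5. LP PIC gave 3073, 3043, 2153, 2892 and 1687 CPM, and LP 3M gave 1985, 2192, 2207, 1705 and 1610 CPM. LP 3M PIC gave 3347, 2638, 5088, 4085 and 4267 CPM. Every treated library was thus more than 10 times above the highest LP library, and the single formulations overlapped each other. The log2 rise was 4.95 ± 0.32 (SE) with LP PIC, 4.62 ± 0.32 with LP 3M and 5.62 ± 0.33 with LP 3M PIC, or 31.0-, 24.6- and 49.1-fold (edgeR quasi-likelihood test, adjusted p = 3.37e-09, 4.76e-09 and 1.39e-10). LP 3M PIC exceeded LP 3M in 5 of 5 mice without overlap, by 2.00-fold (log2 1.00 ± 0.27, adjusted p = 0.00698). Its log2 difference from LP PIC was 0.66 ± 0.27 with an adjusted p of 0.0559 (95% interval 0.09 to 1.24, higher in 4 of 5 mice), and it fell under the threshold when mouse 2 was left out (0.0217) and with DESeq2 (0.0347).

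Clec4d, also called MCL, forms a receptor complex with Mincle and supports its surface expression. Its gene is the neighbour of Clec4e, and it was already abundant in LP, at 579, 608, 681, 614 and 814 CPM. It stood at 1016, 1056, 1168, 1082 and 1235 CPM in LP PIC and at 1265, 1427, 1218, 1036 and 1352 CPM in LP 3M. LP 3M PIC gave 914, 1209, 1039, 844 and 1468 CPM. Each treated library lay above the highest LP library, and the 3 formulations overlapped one another. The rise was 1.74-fold with LP PIC (log2 0.80 ± 0.13, adjusted p = 7.11e-05), 2.06-fold with LP 3M (1.04 ± 0.13, adjusted p = 6.49e-06) and 1.79-fold with LP 3M PIC (0.84 ± 0.13, adjusted p = 1.82e-05). The dual formulation did not pass the test against either single one for Clec4d: the log2 difference was 0.04 from LP PIC (95% interval -0.23 to 0.32) and -0.20 from LP 3M (-0.48 to 0.07).

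Clec4n encodes Dectin-2, an FcR gamma-coupled receptor for fungal mannans. It differed widely between mice, with 8.58, 4.83, 57.2, 34.3 and 13.9 CPM in LP and 49.4, 40.3, 146, 29.7 and 61.4 CPM in LP PIC. In LP 3M it stood at 113, 84.0, 192, 164 and 68.2 CPM, and in LP 3M PIC at 81.9, 70.9, 190.2, 128 and 157 CPM. Mouse 3 was highest in each of the 4 conditions, and every library with 3M lay above the LP range. The log2 rise was 2.45 ± 0.58 with LP 3M (5.47-fold, adjusted p = 0.00246) and 2.46 ± 0.58 with LP 3M PIC (5.50-fold, adjusted p = 0.00110). The rise with LP PIC was 1.45 ± 0.56 (adjusted p = 0.0414, higher in 4 of 5 mice) and was lost when mouse 1, 2, 4 or 5 was left out (adjusted p = 0.112, 0.0693, 0.0535 and 0.131); it was called in 6 of 13 alternative fits. With the mouse as a block it was 1.66 (adjusted p = 0.00226). The block also brought the differences of LP 3M and LP 3M PIC from LP PIC under the threshold, at 1.10 and 1.10 (adjusted p = 0.0199 and 0.0204, against 0.142 and 0.143 without the block). Without mouse 3 these adjusted p were 0.0345 and 0.0337.

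Clec5a encodes MDL-1, a DAP12-coupled receptor of myeloid cells. It was even in LP, at 70.6, 56.7, 75.0, 71.8 and 70.5 CPM, as well as with LP PIC, at 165, 148, 165, 136 and 134 CPM. It was more scattered with 3M, at 80.0, 76.2, 123, 103 and 138 CPM for the single formulation and 79.1, 78.1, 117, 97.9 and 148 CPM for the dual one. LP stood below all treated libraries, and mice 1 and 2 had the low values under both conditions with 3M. The rise was 2.23-fold with LP PIC (log2 1.16 ± 0.17, adjusted p = 1.84e-05), 1.62-fold with LP 3M (0.70 ± 0.17, adjusted p = 0.00272) and 1.62-fold with LP 3M PIC (0.70 ± 0.17, adjusted p = 0.00129). Clec5a was lower in LP 3M than in LP PIC by log2 -0.46 ± 0.17 (adjusted p = 0.0288) and in LP 3M PIC than in LP PIC by -0.46 ± 0.17 (adjusted p = 0.0299), each in 4 of 5 mice. Leaving out mouse 1, 2 or 4 ended the first call (adjusted p = 0.142, 0.0731 and 0.0800). Leaving out mouse 1, 2, 3 or 4 ended the second (adjusted p = 0.156, 0.0701, 0.0647 and 0.0941).

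Clec7a encodes Dectin-1, the receptor for fungal beta-glucans that carries its own shortened ITAM. It was the activating receptor that went down. LP libraries held 216, 165, 115, 144 and 79.4 CPM and LP PIC libraries 229, 238, 203, 124 and 159 CPM. LP 3M libraries held 88.8, 95.2, 77.1, 69.8 and 85.2 CPM, and LP 3M PIC libraries 27.1, 15.9, 63.4, 39.9 and 119 CPM. Mice 1 to 4 had their lowest value in LP 3M PIC, whereas mouse 5 had there a value above its LP. The fall from LP to LP 3M PIC was 2.54-fold (log2 -1.34 ± 0.38, adjusted p = 0.00468, lower in 4 of 5 mice) and was called in all 13 alternative fits, with log2 values from -2.02 to -0.99. Against LP PIC, Clec7a was lower in 5 of 5 mice without overlap in LP 3M PIC (log2 -1.79 ± 0.38, adjusted p = 0.00106) and in LP 3M (-1.13 ± 0.37, adjusted p = 0.0193). The latter was lost without mouse 3 (adjusted p = 0.0707) or mouse 4 (0.0532). Against LP, the log2 difference was 0.45 (95% interval -0.33 to 1.23) with LP PIC and -0.68 (-1.46 to 0.10, adjusted p = 0.158) with LP 3M, and neither passed, although the latter did when the 2 conditions were fitted alone (adjusted p = 0.0331). LP 3M PIC differed from LP 3M by -0.67 (adjusted p = 0.163), which passed without mouse 5 (-1.19, adjusted p = 0.0108). The annotation GENCODE M21 lists mouse Clec7a as a polymorphic pseudogene, and how the authors' annotation treats it is not known here.

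Clec4a1, Clec4a2 and Clec4a3 belong to the DCIR group, of which Clec4a2 (DCIR1) carries an ITIM while Clec4a1 (DCIR4) and Clec4a3 (DCIR3) lack one. All of them were low in LP and rose with 3M. Clec4a1 had 13.5, 7.08, 4.84, 5.70 and 3.80 CPM in LP and 43.2, 20.2, 5.96, 48.9 and 5.47 CPM in LP PIC. It reached 257, 274, 237, 298 and 110.3 CPM in LP 3M and 519.5, 461, 310.1, 445 and 223 CPM in LP 3M PIC. No library with 3M overlapped one without it, and mouse 5 was lowest in each of the 4 conditions. The rise was 36.5-fold with LP 3M (log2 5.19 ± 0.60, adjusted p = 3.14e-06) and 60.98-fold with LP 3M PIC (5.93 ± 0.62, adjusted p = 1.86e-07). With LP PIC it was 3.68-fold (1.88 ± 0.54, adjusted p = 0.00828, higher in 5 of 5 mice), and it lost the call without mouse 4 (1.40, adjusted p = 0.0933). Against LP PIC, Clec4a1 was higher by log2 4.05 ± 0.56 in LP 3M PIC and by 3.31 ± 0.54 in LP 3M (adjusted p = 2.28e-05 and 8.77e-05). LP 3M PIC exceeded LP 3M in 5 of 5 mice by log2 0.74 ± 0.50, which did not pass (adjusted p = 0.246, 95% interval -0.30 to 1.78).

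Clec4a3 had 15.9, 12.0, 7.45, 9.32 and 5.23 CPM in LP and 30.2, 18.2, 6.04, 24.7 and 5.47 CPM in LP PIC. It had 53.3, 57.3, 44.7, 61.6 and 20.8 CPM in LP 3M and 99.8, 92.2, 60.5, 77.6 and 38.5 CPM in LP 3M PIC. Mouse 5 was again the lowest in each condition, and libraries with 3M lay above all LP libraries. The rise was 5.20-fold with LP 3M (log2 2.38 ± 0.45, adjusted p = 0.000465) and 8.09-fold with LP 3M PIC (3.02 ± 0.46, adjusted p = 1.69e-05). The difference of LP PIC from LP was 0.82 (95% interval -0.11 to 1.76, adjusted p = 0.144), and with the mouse as a block it was 0.69 and passed (adjusted p = 0.0213). Clec4a3 was higher in LP 3M PIC than in LP PIC by 2.19 ± 0.44 (adjusted p = 0.000656) and in LP 3M than in LP PIC by 1.55 ± 0.44 (adjusted p = 0.00704). Between LP 3M PIC and LP 3M it differed by 0.64 (adjusted p = 0.236, 95% interval -0.24 to 1.52), which passed with the block (0.64, adjusted p = 0.0197).

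Clec4a2 followed another order. It had 22.4, 20.3, 12.0, 16.6 and 12.5 CPM in LP and 14.1, 15.03, 8.80, 11.9 and 11.3 CPM in LP PIC. LP 3M gave 127, 147, 82.9, 145 and 47.4 CPM, and LP 3M PIC gave 86.5, 116, 29.7, 48.3 and 35.0 CPM. Each mouse had its highest value in LP 3M and its lowest in LP PIC. The rise over LP was 7.14-fold with LP 3M (log2 2.84 ± 0.38, adjusted p = 1.38e-05) and 4.14-fold with LP 3M PIC (2.05 ± 0.37, adjusted p = 9.48e-05). LP PIC differed from LP by -0.40 (95% interval -1.18 to 0.37), which did not pass, although it was lower in 5 of 5 mice. Over LP PIC, Clec4a2 was higher by 3.24 ± 0.38 in LP 3M (adjusted p = 3.14e-06) and by 2.45 ± 0.38 in LP 3M PIC (adjusted p = 5.53e-05). LP 3M PIC was lower than LP 3M in 5 of 5 mice by -0.79 ± 0.35, with an adjusted p of 0.0788 without the block and of 0.00384 with it (-0.86). Without mouse 2 the adjusted p was 0.0374, and without the LP 3M library of mouse 5 it was 0.0250. Of the 50-base words in Clec4a2 transcripts, 6.69% also occur in other genes, mainly Clec4a4 and Clec4b1, and such reads can be split or dropped in counting. The neighbour Clec4a4 (DCIR2) itself rose with LP 3M PIC from a mean of 0.0348 to 1.73 CPM (adjusted p = 3.09e-06). Its LP mean lies below the floor of 3 counts, it had 313 counts over all 20 libraries, and the shared words limit it too.

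Clec12a encodes MICL, an ITIM-bearing receptor that binds uric acid crystals and other products of cell death. It had 469, 474, 342, 439 and 336 CPM in LP and 435, 361, 263, 472 and 256 CPM in LP PIC. It had 301, 308, 341, 374 and 354 CPM in LP 3M and 354, 358, 216, 268 and 248 CPM in LP 3M PIC. The 4 conditions overlapped, and LP 3M PIC was below LP in each of the 5 mice. That difference was log2 -0.39 ± 0.18 with an adjusted p of 0.0587 (95% interval -0.76 to -0.03). It passed with the mouse as a block (-0.40, adjusted p = 0.0166) and with plain library totals in place of TMM scaling (-0.51, adjusted p = 0.0153). The other contrasts of Clec12a had adjusted p from 0.287 to 0.932.

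Clec10a encodes MGL1, a receptor for galactose-type sugars known as a marker of alternatively activated macrophages. It was the lowest of the members, at 4.42, 3.80, 1.35, 1.44 and 1.12 CPM in LP and 1.10, 0.777, 0.219, 0.221 and 0.519 CPM in LP PIC. It had 2.68, 2.18, 0.182, 0.502 and 0.436 CPM in LP 3M and 0.789, 0.812, 0.0797, 0.0523 and 0.0854 CPM in LP 3M PIC. In LP 3M PIC, mice 3, 4 and 5 rested on 1, 1 and 2 counts, below the floor of 3 counts, and mice 1 and 2 were the higher ones in each condition. The fall was log2 -2.49 ± 0.78 with LP 3M PIC (5.61-fold, adjusted p = 0.00922) and -2.01 ± 0.74 with LP PIC (4.02-fold, adjusted p = 0.0327), each in 5 of 5 mice without overlap. The call for LP PIC was lost without mouse 1, 2, 3 or 4 (adjusted p = 0.0546, 0.0785, 0.0544 and 0.0781) and without the 2 shallowest libraries (0.0683). With LP 3M it was lower in 5 of 5 mice by -0.86 (95% interval -2.30 to 0.58, adjusted p = 0.341), and passed with the block (-1.15, adjusted p = 0.00557). The block also called LP 3M PIC below LP 3M (-1.65, adjusted p = 0.00173, against 0.104 without it) and LP 3M above LP PIC (1.00, adjusted p = 0.0245, against 0.215). Of its 50-base words, 9.02% are shared with other genes, first Mgl2, its close copy.

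Because the dual formulation combines both adjuvants, the effect of PIC can be compared with and without 3M. The interaction is the log2 change from LP 3M to LP 3M PIC minus that from LP to LP PIC, so a negative value means that PIC added less where 3M was present. No member had a called positive interaction and 3 of 10 had a negative one, where 3.82% of tested genes were positive and 4.62% negative. These were Clec4e (-3.96 ± 0.40, adjusted p = 1.21e-05), Clec4d (-0.9995 ± 0.19, adjusted p = 0.00318) and Clec5a (-1.16 ± 0.23, adjusted p = 0.00593). With PIC, Clec4e differed by log2 4.95 on LP alone and by 1.00 on LP 3M, and Clec5a by 1.16 and 0.00. The Clec5a interaction was -1.18 without mouse 4, where its adjusted p was 0.0555. Clec4n had -1.45 (adjusted p = 0.267, and 0.0485 with the block). Clec7a had -1.12 (adjusted p = 0.205, and 0.0435 without mouse 5). For Clec4a1 the interaction was -1.14 with a 95% interval of -2.66 to 0.38, and for Clec4a3 it was -0.18 (-1.46 to 1.10), and neither passed. On the log2 scale, the sum of both single changes is the reference for this test, and no statement is made about absolute CPM.

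**Figure D3:**
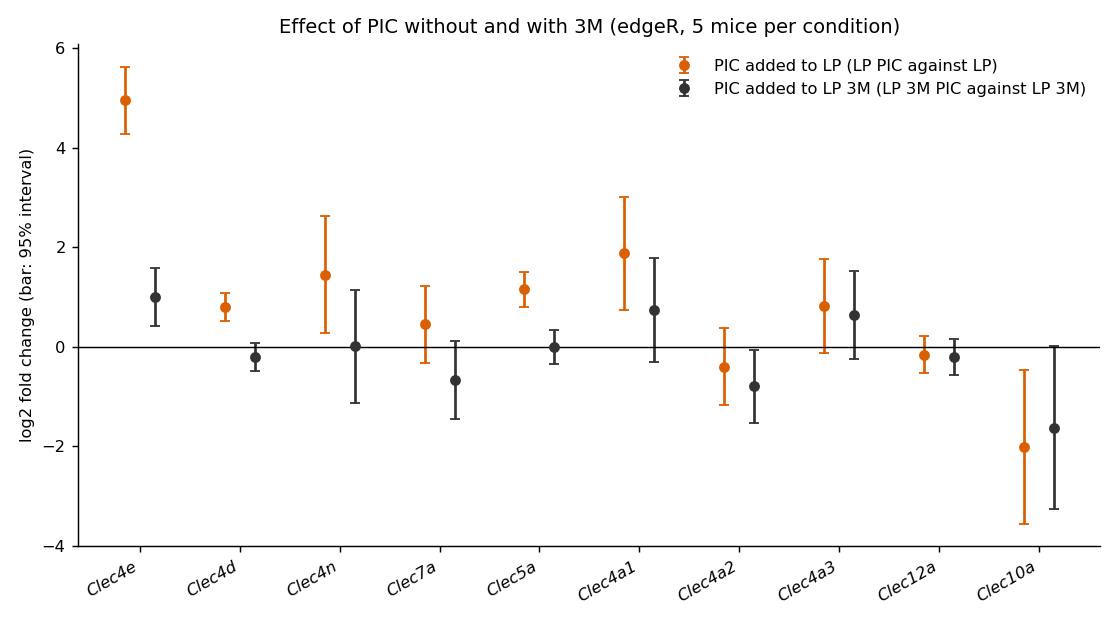
Log2 difference between libraries with and without PIC, on LP alone (LP PIC against LP) and on LP 3M (LP 3M PIC against LP 3M), for each receptor gene, with 95% intervals (edgeR, 5 mice per condition). For Clec4e the pair lies at 4.95 and 1.00, for Clec5a at 1.16 and 0.00, and for Clec4a1 the intervals overlap.

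The remaining contrasts compare formulations directly. LP 3M PIC against LP PIC had 3 members higher (Clec4a1, Clec4a2 and Clec4a3) and 2 lower (Clec7a and Clec5a), where 23.1% of tested genes were higher and 21.4% lower. LP 3M against LP PIC had the same 3 higher and the same 2 lower, where 24.4% were higher and 22.7% lower. These contrasts share the LP PIC libraries, and the count of 5 in the latter was 3 without mouse 4. LP 3M PIC against LP 3M had 1 member higher, Clec4e, and none lower, where 20.5% of tested genes were higher and 21.0% lower. The last count was 4 with the mouse as a block, which added Clec4a2, Clec4a3 and Clec10a, and 2 without mouse 2, without mouse 5 or without the LP 3M library of mouse 5. The members' median log2 difference was 0.35, 0.62 and -0.10 in these contrasts.

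Counts divided by exon length allow a rough comparison of the receptors with each other. The length is the union of all exons annotated for a gene in GENCODE M21. It can exceed the transcript that was expressed, and the ranks and shares depend on it. In LP, Clec4d led with 412 ± 59.0 CPM per kb (SD, n = 5), followed by Clec12a with 74.5 ± 12.3 and Clec7a with 54.5 ± 19.5, whose ranges overlapped. Clec5a (17.9 ± 1.84), Clec4e (17.0 ± 8.22) and Clec4n (16.7 ± 15.4) did not differ beyond their spread, and Clec4a3, Clec4a2, Clec4a1 and Clec10a followed at 7.52, 5.73, 4.48 and 0.836 CPM per kb. In LP 3M PIC, Clec4e (782 ± 188) and Clec4d (685 ± 157) were the highest and overlapped, and Clec4a1 (252 ± 78.0) had risen to the third place. In LP PIC the order began with Clec4d (695 ± 55.4) and Clec4e (518 ± 125), and in LP 3M with Clec4d (788 ± 93.1), Clec4e (391 ± 55.2) and Clec4a1 (151 ± 47.1). The sum over the 10 genes was 611 ± 30.7 CPM per kb with the lipoparticle alone, 1467 ± 97.4 with PIC, 1610 ± 128 with 3M and 1984 ± 180.2 with both. Clec4d made up 67.2 ± 6.49% of that sum in LP and 34.4 ± 6.54% in LP 3M PIC, whereas Clec4e went from 2.76 ± 1.29% to 39.2 ± 7.05% and Clec4a1 from 0.743 ± 0.425% to 13.03 ± 4.93%. Clec7a and Clec12a together with Clec4d dominated in LP, with 9.04% and 12.3%, and held 0.970% and 2.69% in LP 3M PIC.

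**Figure D4:**
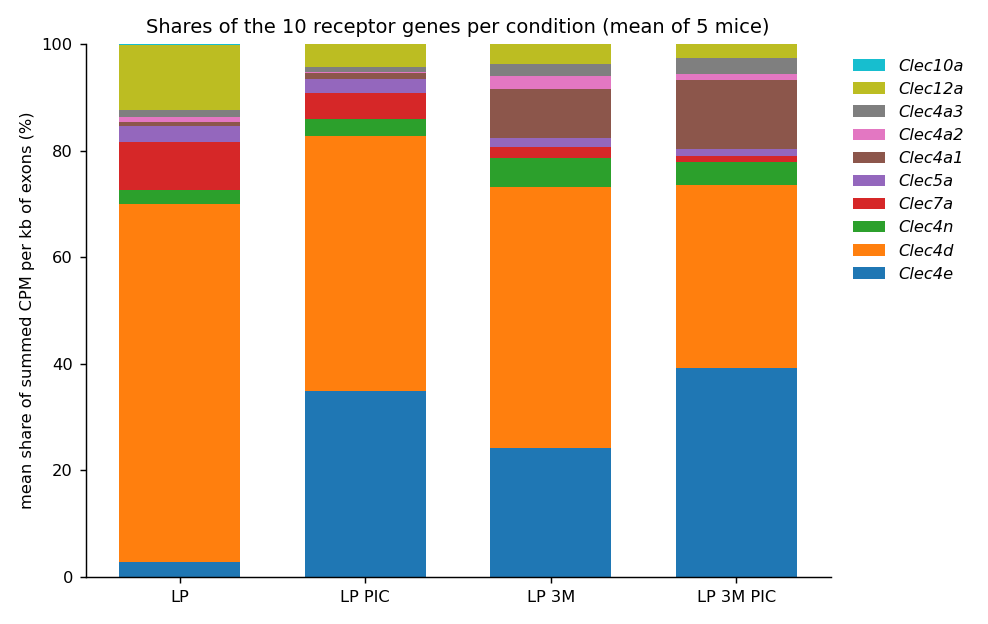
Mean share (%) of each receptor gene in the summed CPM per kb of exons of the 10 genes under each condition (mean of 5 mice). Clec4d holds 67.2% in LP, and Clec4e holds 39.2% in LP 3M PIC.

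Genes with a similar profile were sought among 10017 tested genes of at least 5 CPM in their highest condition. The measure was the smallest root mean square difference between log2 profiles over the 4 condition means, each centred on its own mean. For Clec4e the nearest were Bcl2a1a (0.387 log2 units), Ly75 (0.413) and Irg1 (0.467). For Clec4a1 they were Cd300e (0.212), Mmp9 (0.262) and Socs3 (0.322). For Clec7a they were N4bp3 (0.0461), Egr2 (0.0595) and Igsf11 (0.159), and for Clec4a3 they were Kctd12 (0.105), Itgal (0.128) and Gpr85 (0.140). Clec4n lay nearest to Ugt1a6b (0.156), Pla2g7 (0.176) and Gpr141 (0.183), and Clec4a2 to Raver2 (0.193), Pim2 (0.212) and Cd55 (0.218). Clec4d lay nearest to Atg4a (0.0599), Ms4a7 (0.0623) and Jag1 (0.0690), and Clec5a to Dtnb (0.0234), Sh2b2 (0.0460) and Rarg (0.0713). Among the members themselves, the closest pair was Clec4d and Clec5a (0.266), and Clec4e was 1.91 from its neighbour Clec4d. Clec12a lay nearest to Rusc1 (0.00595), Rpl10 (0.0102) and Zfp275 (0.0103), and Clec10a to Pck2 (0.0404), Phka2 (0.0708) and Ckap4 (0.0735). The profiles used log2 of TMM-scaled CPM plus 0.5, which shrinks the changes of genes near 0, so a small distance can join unlike fold changes. Raver2 went from a mean of 0.0171 CPM in LP to 5.93 CPM in LP 3M, and Clec4a2 from 16.8 to 110 CPM. Between LP and LP 3M PIC, Clec10a went from 2.42 to 0.364 CPM and Pck2 from 59.5 to 17.9 CPM. With 4 points per gene, any likeness is a description.

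Of the other C-type lectin genes, 58 were listed and 19 passed the filter on low counts. With LP 3M PIC 9 rose and 8 fell, where 31.7% of all tested genes rose and 30.6% fell. The uptake receptor Ly75 (DEC-205) rose by log2 5.23 ± 0.50, from a mean of 3.23 to 118 CPM (adjusted p = 5.23e-08). It had a negative interaction like Clec4e (-3.73, adjusted p = 0.00157). Olr1, the receptor for oxidised LDL, rose by 4.68 ± 0.60, Klra2 by 4.34 ± 0.46 and the activation marker Cd69 by 3.99 ± 0.40 (adjusted p = 1.90e-06, 2.12e-07 and 1.07e-07). Cd93 fell from 406 to 151 CPM (-1.32 ± 0.18, adjusted p = 3.16e-06). Cd72, an ITIM-bearing receptor, had a mean of 324 CPM in LP against 367 CPM in LP 3M PIC and did not pass there (adjusted p = 0.334), but fell with LP PIC to 107 CPM (-1.56, adjusted p = 0.000120).

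Of 29 adaptors and kinases downstream of the activating receptors, 14 rose and 8 fell with LP 3M PIC (31.7% and 30.6% over all tested genes), with a median log2 change of 0.16. Fcer1g, the FcR gamma chain that Clec4e and Clec4n use, went from 754 ± 83.6 to 1662 ± 162 CPM (log2 1.25 ± 0.13, adjusted p = 1.62e-07). Syk went from 533 ± 47.5 to 1256 ± 66.8 CPM (1.35 ± 0.09, adjusted p = 4.65e-10), with 806 CPM in LP PIC and 1162 in LP 3M. The kinase gene Src rose by 2.64 ± 0.21, and Malt1, the protease of the CARD9 complex, by 2.79 ± 0.18 (adjusted p = 6.74e-09 and 3.63e-10).

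Of 19 listed inhibitors of such signalling, 18 were tested, and 10 rose and 4 fell with LP 3M PIC, beside 31.7% and 30.6% of all tested genes. The inhibitory receptor Pilra rose from 9.28 to 258 CPM (4.91 ± 0.36, adjusted p = 1.97e-09). The phosphatase genes Ptprj and Ptpn6, the latter encoding SHP-1, rose by 1.14 ± 0.15 and 0.93 ± 0.12, and the ubiquitin ligase gene Cbl by 0.92 ± 0.15 (adjusted p = 2.28e-06, 2.08e-06 and 2.60e-05). Sirpa fell by 0.17 on the log2 scale, from 2339 to 1925 CPM (adjusted p = 0.0315). Lilrb4a had a mean of 1804 CPM in LP against 1405 CPM in LP 3M PIC, which did not pass (adjusted p = 0.134) but did with the mouse as a block (log2 -0.26, adjusted p = 0.0195).

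Of 18 genes listed as targets of C-type lectin receptor signalling, 16 were tested, and 14 rose and 1 fell with LP 3M PIC, against a background of 31.7% rising and 30.6% falling. These genes also respond to other innate receptors. The interleukin genes Il12b and Il6 were near 0 in LP (0.0346 and 0.0348 CPM) and at 340.4 ± 182 and 252 ± 114 CPM in LP 3M PIC. Il1b went from 0.456 to 1011 ± 710 CPM and Nos2, the inducible nitric oxide synthase, from 0.214 to 240.0 ± 82.5 CPM. The chemokine gene Ccl3 rose by 4.33 ± 0.32 and Ptgs2, the inducible cyclooxygenase, by 9.42 ± 0.79 (adjusted p = 2.10e-09 and 1.14e-08). In LP PIC, Il12b stood at 1.24 CPM, Il1b at 5.31 CPM and Il6 at 0.653 CPM. Il12b and Il1b were higher there than in LP (edgeR, adjusted p = 0.00721 and 0.0122). Il6 and Ccl3 did not pass in LP PIC (adjusted p = 0.117 and 0.250). There Nos2 was at 94.2 CPM and Ptgs2 at 37.7 CPM, both higher than in LP (adjusted p = 3.06e-07 and 5.80e-05). Of the 16 tested targets, 7 rose and 1 fell with LP PIC, where 22.7% of all tested genes rose and 22.7% fell.

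Of 20 transcription factors of myeloid and inflammatory genes, 10 rose and 4 fell with LP 3M PIC, while 31.7% of all tested genes rose and 30.6% fell. Spi1, which encodes PU.1, went from 392 to 452 CPM (0.32 ± 0.10, adjusted p = 0.00837). Cebpa, which encodes C/EBP alpha, fell by 2.74 on the log2 scale, from 192 to 26.7 CPM (adjusted p = 1.42e-06). Hif1a rose by 1.66 ± 0.10 and the NF-kB subunit gene Relb by 1.63 ± 0.10 (adjusted p = 2.12e-10 and 1.71e-10). Zeb2 had a mean of 320.1 CPM in LP against 342 CPM in LP 3M PIC (adjusted p = 0.0523, and 0.0468 with the mouse as a block).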

How the data were processed

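RNA was sequenced from stranded, poly(A)-enriched libraries of 5 mice under each of 4 conditions, 20 libraries in all. The deposited values are raw read counts per gene symbol, not normalised by the authors. Per the submitters' processing notes, STAR 2.7.11b, HTSeq 0.13.5, FastQC 0.11.1 and DESeq2 1.44.0 were used with build GRCm38. The annotation and strand setting of the counting were not stated there. Entries of no gene stayed out of library sizes and tests (reads outside genes were 5.94 to 8.58%, ambiguous reads 1.14 to 1.90% beside the gene counts). No 2 libraries were duplicates: the lowest chi-square per degree of freedom over 190 pairs was 7.43.

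Members, lists and the naming rule were chosen with earlier results of these data known. All members are named. From each related list, the 4 called genes of at least 5 CPM with the largest change in LP 3M PIC against LP and the 2 with the highest mean are named, and for each member the 3 nearest profiles (log2 of TMM-scaled CPM plus 0.5). Clec4a4 was named after its values were seen. Of the genes this rule selects, 2 are not reported here.

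The counts were fitted with edgeR 4.0.16 in R 4.3.3 (filterByExpr with a minimum count of 10 and total of 15, 12132 genes kept, TMM factors 0.945 to 1.07, robust quasi-likelihood F-test, two-sided, 1 mean per condition over 20 libraries, 7 contrasts). A gene was called at an adjusted p under 0.05 (Benjamini-Hochberg, across every tested gene). SE is the size of the log2 change over the root of F, and intervals use the matching t quantile. CPM use plain library totals except in the profiles, with SD over 5 mice. Exon lengths and locations come from GENCODE M21, in which 95.5% of symbols were found once. Floors of 3 counts cover counting error only. Python 3.11.15 made the tables and figures. The fit was also run on simulated counts with a fixed spread and no mouse effect. That run does not test how the pairing by mouse affects the calls.

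The labels give the same 5 mice in each condition, so libraries are paired by mouse. The main fit did not use this pairing, and the mouse block was an alternative. Deviations from the condition means correlated at 0.138 to 0.533 (median 0.387, 30 pairs) within a mouse and at a median of -0.148 (120 pairs) between mice. Centring each condition on its own mean pulls the correlations between mice down, so the negative sign is partly built in. Alternatives were DESeq2 1.42.0 and its size factors, plain totals, no filter, only the conditions compared, the mouse block, leaving out each mouse, and, chosen after seeing the data, leaving out the LP 3M library of mouse 5 or the 2 shallowest libraries.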

Additional observations from a re-analysis of the deposited data

Results flagged for a closer look

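Of the levels, 2 stood apart among the 40 sets of 5 libraries examined, where chance alone sets apart a library in about 1 in 20. Clec4n in LP PIC was at 146 CPM in mouse 3, while the other libraries lay between 29.7 and 61.4 CPM. Clec5a in LP was at 56.7 CPM in mouse 2, the library of lowest depth, while the others lay between 70.5 and 75.0 CPM.

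The effect of PIC differed with and without 3M for 3 members by the test of the interaction (edgeR). The difference in log2 effect was -3.96 for Clec4e (adjusted p = 1.21e-05), -0.9995 for Clec4d (adjusted p = 0.00318) and -1.16 for Clec5a (adjusted p = 0.00593).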

How the results depend on the processing

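Over 70 log2 fold changes of members, 838 of 900 alternative values kept their direction and their side of the threshold, 23 lost a call, 21 gained one and 18 changed sign. Of 36 called results, 29 stayed called in every alternative and none changed sign. The mouse block added 10 calls, given beside those results, and changed no other call. TMM-scaled library sizes moved none of the 40 mean levels beyond 1 SD. With factors of 0.945 to 1.07 none could, since the smallest SD was 7.98% of its mean (Clec4d in LP PIC). This is therefore no check of the levels.

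Of 6 members called in LP PIC against LP, 3 to 5 were called when a mouse was left out (3 without mouse 4). Of 5 in LP 3M against LP PIC, 3 to 5 were called (3 without mouse 4). For LP 3M PIC against LP 3M, where 1 was called, leaving out a mouse gave 1 to 2, the replicate block 4 and the fit without LP 3M of mouse 5 gave 2. The cause was not tested.

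The sign changes touched only differences that were not called. Clec4d in LP 3M PIC against LP PIC was -0.022 with plain totals and -0.032 to 0.11 with a mouse left out. Clec4n in LP 3M PIC against LP 3M was -0.15 without LP 3M of mouse 5, -0.19 without the 2 shallowest libraries and -0.24 to 0.12 with a mouse left out. Clec5a in that contrast was 0.0028 with DESeq2 size factors, 0.0024 with DESeq2, 0.11 without LP 3M of mouse 5 and -0.038 to 0.028 with a mouse left out. Clec12a in LP 3M against LP PIC was 0.023 with the block and -0.14 to 0.084 with a mouse left out. The interaction with a mouse left out was -0.26 to 0.12 for Clec4a3 and -0.23 to 0.13 for Clec12a. Depth limits Clec10a, which rested on 40 counts over the 5 LP 3M PIC libraries.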

Other observations

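The 7 tested genes of the stretch from Clec4a1 to Clec4e were all called higher with LP 3M and with LP 3M PIC against LP. Over all tested genes, 20.0% and 31.7% were higher in these contrasts. Of the 7, 6 are members, which were chosen with earlier results known, so the count does not describe the stretch as such. With LP PIC, Clec4e rose by log2 4.95 and its neighbour Clec4d by 0.80. Of the 9 genes from Clec4a1 to Clec4e, Clec4b1 and Clec4b2 had 110 counts and 1 count over all 20 libraries and were not tested. In the other stretch, Clec12b, Clec1b and Clec9a had 4, 104 and 14 counts and were not tested. Clec1a, at a mean of 0.534 CPM in LP and 0.0435 CPM in LP 3M PIC, fell there with Clec7a, by 3.33 on the log2 scale (edgeR, adjusted p = 0.00294). It was 0.792 CPM in LP PIC, which did not pass (adjusted p = 0.315). The genes here that are not members were picked for their position. The levels of Clec1a are close to the floor of 3 counts, and the LP mean of Clec4a4 lies below it.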
